A study of Mus musculus with 6 samples.

Results

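The 4 Hox clusters were examined in the chromatin of mouse nephron progenitors, the cells of the outer kidney that give rise to the nephrons. The clusters hold the 38 Hox genes considered here. A listed region of open chromatin belonged to a cluster if it overlapped the stretch from the first to the last of these genes or 50 kb on either side. This gave 15 of the 43523 distinct regions of the count table, with 4 in HoxA, 3 in HoxB, 5 in HoxC and 3 in HoxD. Accessibility was measured by ATAC-seq, in which the transposase Tn5 cuts and tags open DNA, and a region that is open more often gives a higher count. The progenitors came from CD1 mice at E14.5, in midgestation, or at P0, the day of birth, with no genetic change or treatment named for either stage. Each of the 3 libraries per stage was made from 50000 cells of the pooled kidneys of 1 litter, captured on magnetic beads by Itga8, an integrin that the progenitors carry on their surface.

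Hox genes encode homeodomain transcription factors that give cells their position along the body axis. In each cluster the genes of the 13 paralog groups stand in the order of the body regions in which they act, from anterior (low numbers, at the 3' side of the cluster) to posterior (high numbers, at the 5' side). In the kidney, the Hox11 paralogs act with Eya1 and Pax2 in the metanephric mesenchyme to switch on Six2 and Gdnf, and the Hox10 paralogs are known for their part in the kidney stroma. The clusters also carry miRNA genes of the miR-10 and miR-196 families, whose known targets include Hox transcripts, and long noncoding RNA genes such as Hotair and Hottip.

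A region covered the start of 3 of the 22 Hox genes that have an entry in the RefSeq promoter table (GRCm38.p6): Hoxd10, a posterior gene, and Hoxd1 and Hoxa3, anterior genes. The 250 bases before each of these starts, which lay wholly within the region, are shown because they are the Hox promoter sequences to which the counts refer. Capitals mark matches to 5 short motifs searched on both strands: the E-box CACGTG, the CCAAT box CCAAT, the Meis site TGACAG, the homeodomain site TAATTA and the TATA box TATAAA.
Hoxd10, chr2:74691641-74691890, plus strand: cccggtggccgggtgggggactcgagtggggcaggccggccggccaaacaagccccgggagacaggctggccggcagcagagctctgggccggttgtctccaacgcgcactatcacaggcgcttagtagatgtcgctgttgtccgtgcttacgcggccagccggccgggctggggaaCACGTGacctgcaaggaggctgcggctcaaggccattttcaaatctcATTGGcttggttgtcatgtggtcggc
Hoxd1, chr2:74762730-74762979, plus strand: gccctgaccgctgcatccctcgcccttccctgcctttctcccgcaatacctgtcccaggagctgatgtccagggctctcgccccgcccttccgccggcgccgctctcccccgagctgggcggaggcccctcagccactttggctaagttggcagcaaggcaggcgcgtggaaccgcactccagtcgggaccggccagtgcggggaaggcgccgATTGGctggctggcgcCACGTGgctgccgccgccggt
Hoxa3, chr6:52213068-52213317, minus strand: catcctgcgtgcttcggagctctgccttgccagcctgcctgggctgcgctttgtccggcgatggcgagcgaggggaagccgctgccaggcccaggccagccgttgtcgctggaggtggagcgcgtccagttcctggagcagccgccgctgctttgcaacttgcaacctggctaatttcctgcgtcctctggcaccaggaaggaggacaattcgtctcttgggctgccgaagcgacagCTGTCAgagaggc
The Hoxd10 and Hoxd1 sequences each held a CCAAT box and an E-box, the letters bound by Myc with Max. Over the 32851 promoters of the table, 33.8% held the CCAAT box letters and 6.02% the E-box letters. Among the 24 Hox promoters of the table, 14 held the CCAAT box letters and 4 the E-box letters. The E-box letters were also at Hoxd11 and Hoxd13, whose starts no region covered. The Hoxa3 sequence held the Meis site, which was present in 15.9% of all promoters and in 2 of the 24 Hox promoters, the other at Hoxa2. The homeodomain and TATA box letters were in none of the 3 sequences. They were G+C-rich, at 64.8% to 71.6%, with 18 to 24 CpG dinucleotides, against medians of 55.6% and 12 over the other 21 Hox promoters and of 52.4% and 6 over all promoters. These matches describe the letters alone.

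One miRNA gene, Mir615, lay under a region, the one at the start of Hoxc5. The nearest regions to the other miRNA genes of the clusters were 3185 bp from Mir196a-1, 5436 bp from Mir196a-2, 7428 bp from Mir196b, 31268 bp from Mir10a and 32714 bp from Mir10b. The mature sequences are shown with the seed (bases 2 to 8) in capitals, to set the miRNA with an accessible gene beside those without a listed region.
mmu-miR-615-3p: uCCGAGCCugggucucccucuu
mmu-miR-615-5p: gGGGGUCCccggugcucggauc
mmu-miR-196a-5p: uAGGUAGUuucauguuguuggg
mmu-miR-196b-5p: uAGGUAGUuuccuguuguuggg
mmu-miR-10a-5p: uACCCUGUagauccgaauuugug
mmu-miR-10b-5p: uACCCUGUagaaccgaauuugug
Both miR-196 forms share 1 seed and differ by A12C, and both miR-10 forms share another and differ by U12A (miR-196a or miR-10a first, positions from the 5' end). Neither arm of miR-615 shares a seed with them.

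Counts in regions totalled 6492996 to 12292629 per library, and the 15 Hox regions held 1242 to 2929 of them, or 0.0191% to 0.0238%. The lowest count of any Hox region in any library was 26 and the highest 346. Of the other cell types the selection could carry, immune markers had a region over 0 of the 3 starts that could be placed and endothelial markers over 2 of 4. For stromal markers the number was 4 of 6, among them Foxd1 and Meis1, for ureteric markers 2 of 5, and for nephron progenitor markers 4 of 5, with Six2, Cited1, Sall1 and Itga8 covered and Pax2 uncovered. The summed level over the covered starts was 131 to 138 CPM at E14.5 and 106 to 144 CPM at P0 for the nephron progenitor markers, and 105 to 129 CPM and 92.0 to 139 CPM for the stromal markers. For the ureteric markers (Wnt11 and Gata3) it was 64.4 to 76.7 CPM and 57.1 to 80.2 CPM, and for the endothelial markers (Kdr and Erg) 29.5 to 42.9 CPM and 32.0 to 42.9 CPM. CPM are counts scaled to library size by TMM, edgeR's trimmed mean method. The part of other cell types in the Hox counts was not tested.

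Few Hox genes had a listed region over their start. By the starts of the RefSeq gene spans and of the promoter table together, a region covered the start of 7 of the 38 genes: Hoxa3, Hoxb7, Hoxc5, Hoxc6, Hoxc10, Hoxd1 and Hoxd10. Among genes with an entry in the promoter table the share was 3 of 22, or 13.6%, against 55.9% of the 17491 protein-coding genes of that table. Of the Hox10 paralogs, Hoxc10 and Hoxd10 were covered, and the nearest region to a start of Hoxa10 was 12286 bp away. None of the Hox11 paralogs, the group that acts in the nephron-forming mesenchyme, had a region over its start. The nearest regions were 8776 bp from Hoxd11, 11292 bp from Hoxc11 and 23157 bp from Hoxa11. Genes of paralog groups 12 and 13 lay 16086 to 66163 bp from the nearest region.

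Rows of the table, repeats of a region included, carry running numbers in genome order, and not every number is listed. Within the 4 windows, from the first to the last listed region of each, 16 of 34 numbers had a row, or 47.1%, against 71.4% over the whole table. These are shares of rows and not of regions, as the 16 rows hold 15 distinct regions. Numbers without a row were not analysed here, so a gene without a listed region is not thereby shown to be closed. The 4 windows together held 16.9 regions per Mb, against 16.4 in the whole table, with 2.96% of their length in regions against 2.75%. The clusters differed around these values, from 10.95 regions per Mb and 1.77% of the length in HoxB to 23.2 regions per Mb and 5.07% in HoxC.

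**Figure D1:**
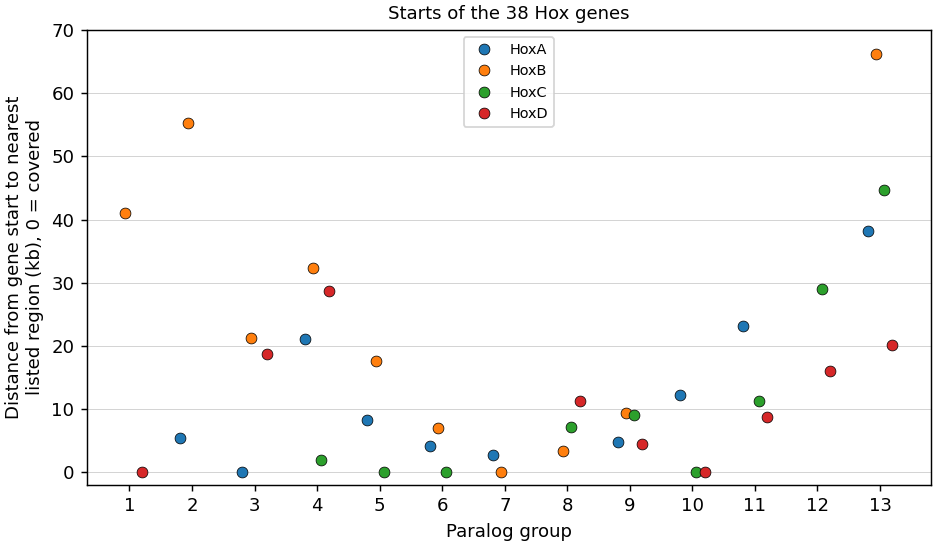
Distance in kb (vertical axis) from the start of each of the 38 Hox genes to the nearest listed region, by paralog group (horizontal axis) and cluster (colour), with 0 for a covered start. The 7 covered starts lie in groups 1, 3, 5, 6, 7 and 10, and the 3 genes of group 11 lie 8776 to 23157 bp away.

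Of the 7 covered starts, 3 were in HoxC (Hoxc5, Hoxc6 and Hoxc10), 2 in HoxD (Hoxd1 and Hoxd10), 1 in HoxA (Hoxa3) and 1 in HoxB (Hoxb7). The Hoxa3 region belongs to the upstream start of that gene, which by the gene spans lies between Hoxa6 and Hoxa7. It also overlapped the noncoding RNA gene Hoxaas3. By place, 2 regions were anterior (nearest to a gene of groups 1 to 4), 3 central (groups 5 to 8) and 4 posterior (groups 9 to 13), and 4 lay in the anterior flanks and 2 in the posterior flanks.

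**Figure D2:**
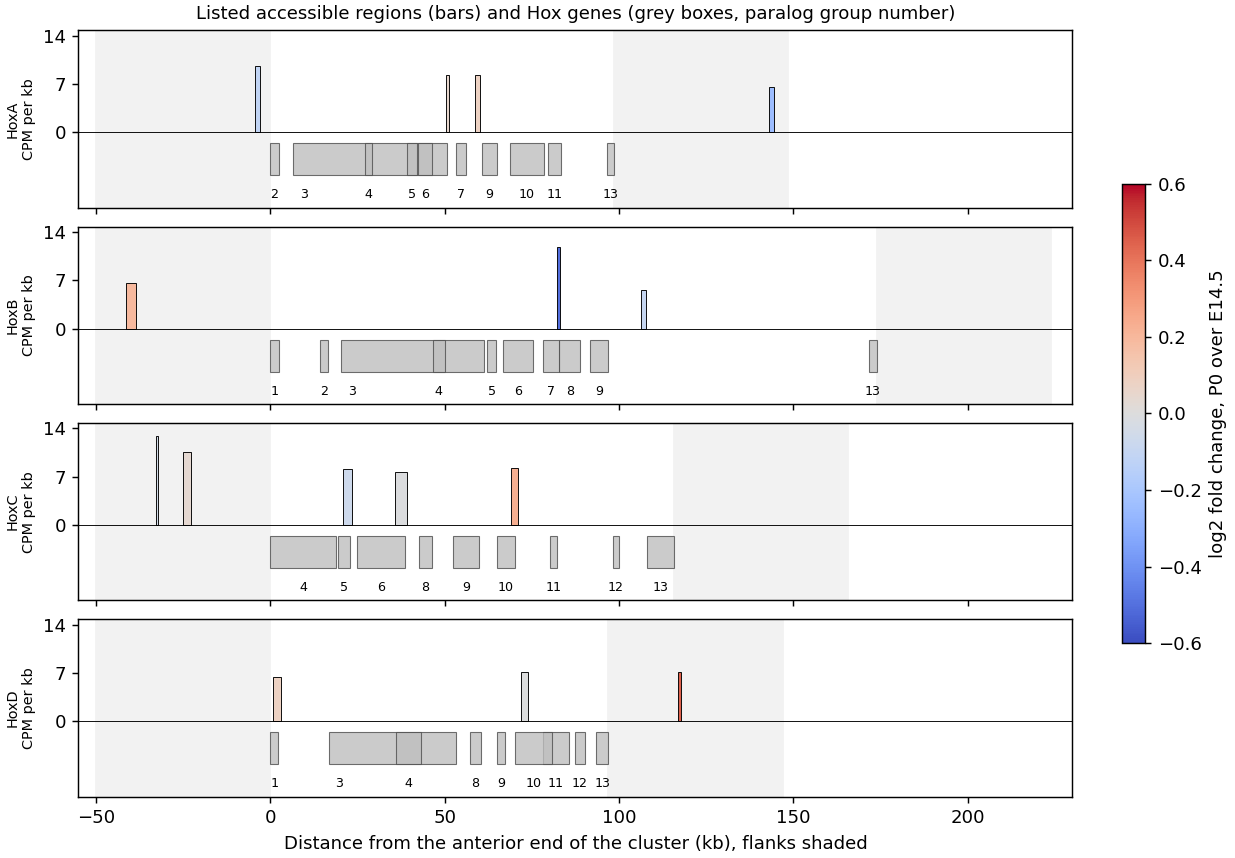
The 4 clusters drawn from anterior to posterior, with distance in kb from the anterior end (horizontal axis), Hox genes as grey boxes with their paralog group, and the 15 regions as bars whose height is the mean accessibility in CPM per kb and whose colour is the log2 fold change of P0 over E14.5. Bar heights run from 5.54 to 12.9 CPM per kb, and 9 of the 15 bars stand inside the clusters rather than in the shaded 50 kb flanks.

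The annotation columns of the table class 11 of the 15 regions as promoters (73.3%, against 32.4% of all regions) and the other 4 as intergenic. Per length, the median of the Hox regions was 8.07 CPM per kb, against 8.89 over all regions and 12.8 over all promoter regions. Among the 11 promoter regions the median was 8.24 CPM per kb, and each of them lay below the median of all promoters. The lowest was at Gm53, a predicted gene between Hoxb13 and Hoxb9, with 5.54 CPM per kb. The highest promoter region was at Hoxb7, with 11.9 CPM per kb, and the highest Hox region of all was a short intergenic one of 661 bp beyond Hoxc4, with 12.9.

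No Hox region passed the test for a difference between the stages. By edgeR's quasi-likelihood test at a Benjamini-Hochberg adjusted p under 0.05 over all regions, 0 of 15 passed, against a background of 4.73% of all regions. By direction, 0 of 15 were higher at P0 (1.79% of all regions) and 0 of 15 lower (2.94%). At an unadjusted p under 0.05 the count was also 0, against 18.7% of all regions and 8.73% of all promoter regions, and DESeq2 and limma-voom likewise gave 0 at either threshold. Among promoters the background is lower, with 0.851% of all promoter regions called, so that for the 11 Hox promoter regions a count of 0 is near the background. Among the other regions 6.59% were called, and 0 of the 4 Hox regions of that kind. In these pooled cells, fewer cells with an open region and a less open region in each cell could not be told apart.

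The differences were small on the log2 scale, where 1 is a doubling at P0. The median log2 fold change was -0.0030 over the Hox regions and 0.0097 over all regions. In size, regardless of direction, the median was 0.084 for the Hox regions, 0.18 for all promoter regions and 0.25 for all regions. Of the 15 values, 7 were above 0 and 8 below. The 95% interval of each of the 15 included 0, and in 13 of them it lay within a 2-fold change in either direction. The exceptions were Hoxb7, whose interval reached down to -1.19, and the region beyond Hoxd13, whose interval reached up to 1.07. When 200 of the 43523 regions were changed in counts simulated from these libraries, the test called 60 of the 200 for a 2-fold change and 197 of the 200 for a 4-fold change. The simulation changed fewer regions than the 2059 called in the data, which makes the adjusted threshold stricter, and drew them from all regions. Its shares therefore do not measure the power of the test at the Hox regions. A 2-fold change could still have gone uncalled, and it is the intervals that bound the differences.

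**Figure D3:**
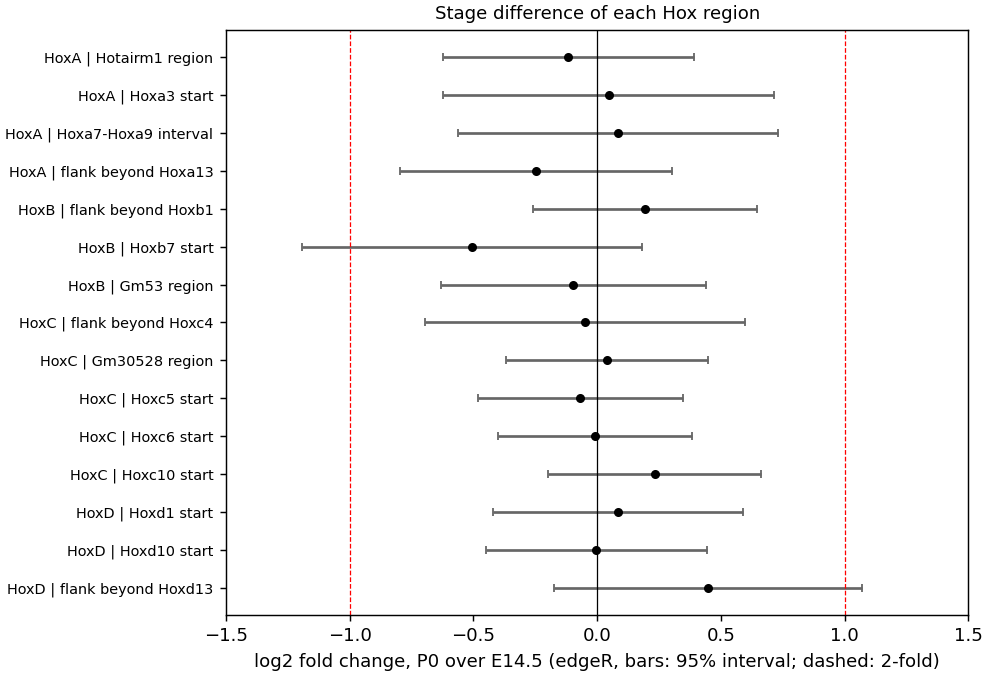
Log2 fold change of P0 over E14.5 (horizontal axis) for each Hox region, with its 95% interval from edgeR as bars and dashed lines at a 2-fold change. Each interval crosses 0, and those of Hoxb7 (-1.19 to 0.18) and of the region beyond Hoxd13 (-0.18 to 1.07) cross a dashed line.

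Posterior regions come first. The region over the start of Hoxc10, a posterior gene of the group known in kidney stroma, lay on chromosome 15 from 102965818 to 102967914. Its accessibility was 14.8, 15.8 and 17.2 CPM in E14.5 replicates 1, 2 and 3, and 17.3, 16.8 and 21.9 CPM in P0 replicates 1, 2 and 3. The stages overlapped, with P0 replicate 3 above the rest. The difference of 0.23 (SE 0.20, 95% interval -0.20 to 0.66) did not pass the test (edgeR adjusted p = 0.592). The table's annotation gives this region to Hoxc5, whereas in RefSeq it overlaps the start of Hoxc10.

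Its paralog Hoxd10 had a region on chromosome 2 from 74691099 to 74693356, across the gene's start and first part. The libraries held 18.7, 15.3 and 14.25 CPM at E14.5 and 17.2, 13.8 and 17.1 CPM at P0. With means of 16.1 ± 2.35 and 16.0 ± 1.93 CPM (SD, n = 3 each), the means differed by less than either SD, and the interval of the log2 fold change ran from -0.45 to 0.44. For Hoxc10 the corresponding means were 15.9 ± 1.18 and 18.6 ± 2.80 CPM. Per length, the Hoxd10 and Hoxc10 regions held 7.11 and 8.24 CPM per kb over the 6 libraries.

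In HoxA the posterior side had 1 region, on chromosome 6 from 52221243 to 52222653. It lay between Hoxa7 and Hoxa9, 2670 bp from the start of Hoxa7, and the table lists it as a promoter of Hoxa7, a central gene. Accessibility was 9.61, 9.11 and 15.6 CPM at E14.5 and 12.3, 7.11 and 16.4 CPM at P0. The libraries of 1 stage differed by more than the stages did, and E14.5 replicate 3 and P0 replicate 3 were the high ones. In HoxB, the Gm53 region on chromosome 11 from 96260479 to 96261979 stood 3185 bp from Mir196a-1. It held 8.90, 8.32 and 8.64 CPM at E14.5 and 8.02, 6.96 and 9.08 CPM at P0, a narrow and overlapping range.

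Among the central regions was the longest Hox region, which also had the most counts. It lay on chromosome 15 from 102997718 to 103001028, was 3311 bp long and covered the start of Hoxc6, which acts at thoracic levels. Its values were 24.7, 24.0 and 27.8 CPM at E14.5 and 23.6, 24.97 and 27.3 CPM at P0. Of the 15 regions it varied least between libraries, with the highest 1.18 times the lowest, and its interval was the narrowest, from -0.40 to 0.38. The region at Hoxc5 and Mir615, on chromosome 15 from 103013378 to 103016140, held 19.3, 22.2 and 27.0 CPM at E14.5 and 20.7, 21.6 and 22.9 CPM at P0. All 3 P0 libraries fell inside the range of the E14.5 libraries.

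Hoxb7 gave the largest loss in size, and it did not pass the test. Its region, on chromosome 11 from 96285185 to 96285897, was 713 bp long and lay across the start of Hoxb7 and the end of the Hoxb8 span. Accessibility was 13.05, 8.06 and 8.87 CPM at E14.5 and 9.58, 3.93 and 7.26 CPM at P0. The low value of P0 replicate 2 rested on 26 counts. The log2 fold change was -0.51 (SE 0.32, 95% interval -1.19 to 0.18, edgeR adjusted p = 0.439). Leaving out P0 replicate 2 gave -0.25. Leaving out P0 replicate 1 gave -0.81, with an unadjusted p of 0.0424 and an adjusted p of 0.379 by edgeR.

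The 2 anterior regions lay at Hoxd1 and Hoxa3. Hoxd1, the most anterior gene of its cluster, had a region on chromosome 2 from 74762134 to 74764295 that also overlapped the noncoding RNA gene Haglr. It held 14.7, 10.3 and 15.1 CPM at E14.5 and 11.7, 17.1 and 13.8 CPM at P0. Hoxa3, which patterns pharyngeal and neck structures, had 9.25, 5.96 and 8.99 CPM at E14.5 and 6.04, 6.66 and 11.9 CPM at P0, on chromosome 6 from 52212772 to 52213756. At both genes the stages overlapped widely, and the order of the libraries differed: P0 replicate 2 was highest at Hoxd1 and P0 replicate 3 at Hoxa3.

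**Figure D4:**
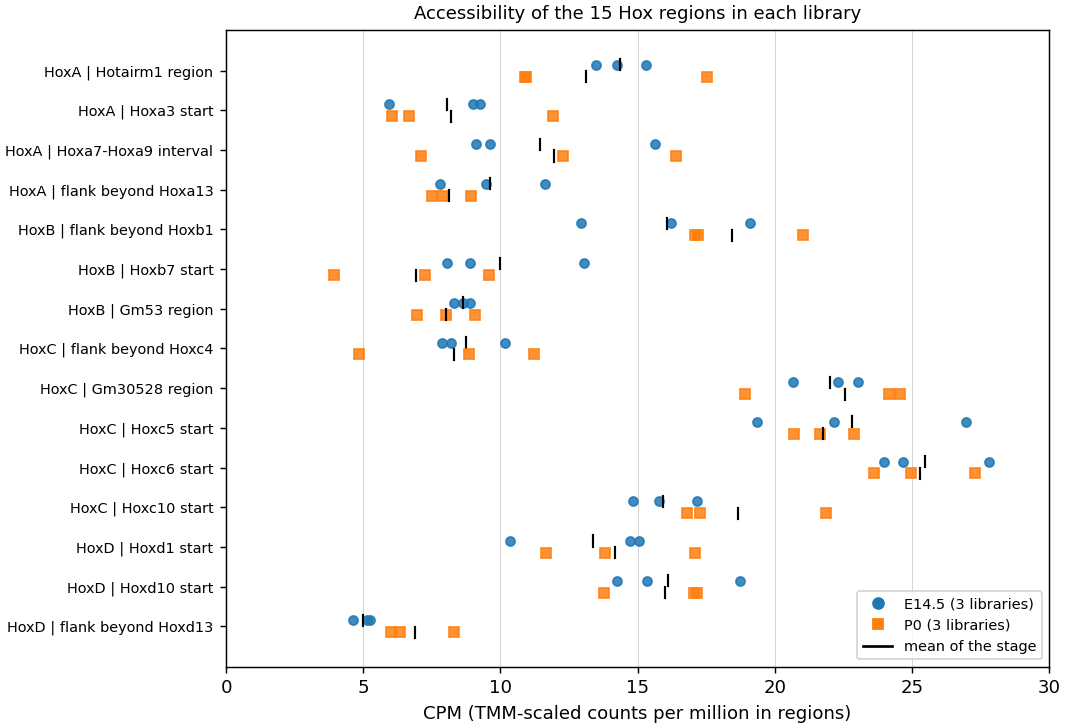
Accessibility in CPM (horizontal axis) of the 15 Hox regions in each of 3 E14.5 libraries (circles) and 3 P0 libraries (squares), with the mean of each stage as a short line. The stages overlap in 14 of the 15 regions, and the exception is the region beyond Hoxd13.

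The flanks held the gain of largest size. The region beyond Hoxd13 lay on chromosome 2 from 74647291 to 74648116, 4873 bp beyond Evx2, a homeobox gene next to the posterior end of HoxD. It held 4.63, 5.25 and 5.14 CPM at E14.5 and 6.35, 8.32 and 6.00 CPM at P0, so that each P0 library lay above each E14.5 library. It was the 1 Hox region of 15 whose stages did not overlap, where 24.2% of all regions had this. It also had the fewest counts of the 15, from 39 to 76 per library. The log2 fold change was 0.45 (SE 0.29, 95% interval -0.18 to 1.07, edgeR adjusted p = 0.452).

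Beyond Hoxa13, at the posterior end of HoxA, a region on chromosome 6 from 52305526 to 52306863 lay 6635 bp from Evx1 and 37923 bp from Hottip. Accessibility was 11.6, 7.79 and 9.46 CPM at E14.5 and 7.91, 8.93 and 7.50 CPM at P0. The sign was the opposite of that beyond Hoxd13, at -0.25 (95% interval -0.80 to 0.30), and neither difference passed. The anterior flank of HoxA had a region over the noncoding RNA genes Hotairm1 and Hotairm2, on chromosome 6 from 52158042 to 52159467. It held 15.3, 13.5 and 14.25 CPM at E14.5 and 10.9, 10.9 and 17.5 CPM at P0, with a wider spread at P0.

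The anterior flank of HoxB had 1 intergenic region, on chromosome 11 from 96406872 to 96409497. With 12.9, 19.1 and 16.2 CPM at E14.5 and 21.0, 17.1 and 17.2 CPM at P0 (6.57 CPM per kb over the 6 libraries) it had a difference of 0.19 (95% interval -0.26 to 0.65). It was also the only 1 of the 15 with a listed Six2 motif, as against 2.65% of all regions. The anterior flank of HoxC had 2 regions, both overlapping an enhancer of the FANTOM catalogue, as did 9.65% of all regions. The first, at the predicted gene Gm30528 on chromosome 15 from 103059689 to 103061790, held 22.3, 23.0 and 20.7 CPM at E14.5 and 24.6, 18.9 and 24.2 CPM at P0. It was the only 1 of the 15 with a listed Meis1 motif (4.49% of all regions), the motif of a Hox cofactor. The second, from 103069070 to 103069730, held 8.19, 7.88 and 10.2 CPM at E14.5 and 8.85, 4.84 and 11.2 CPM at P0. Its P0 values enclosed the E14.5 values.

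The table listed at least 1 motif in 10 of the 15 regions and in 62.3% of all regions. Sall1, which is the motif of a nephron progenitor regulator, was listed in 3 of the 15 regions, at Hoxb7, Hoxc5 and Hoxc6, and in 11.8% of all regions. Maz was listed in 4 (21.3% of all regions) and forkhead motifs of any name in 4 (21.0%), with Foxo4 in 3 (3.70%). The Hoxc10 region carried the only listed Sox motifs among the 15.

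By cluster, the mean summed accessibility differed between the stages by less than the range of the libraries within either stage. In HoxB the means differed by more than the E14.5 SD of 0.875 CPM, and in HoxD by more than the P0 SD of 2.01 CPM. HoxC, with the most regions, had the highest sum, at 89.3, 92.8 and 103 CPM in the E14.5 libraries and 95.1, 87.2 and 107 CPM in the P0 libraries. HoxA held 45.8, 36.3 and 48.3 CPM at E14.5 and 37.2, 33.6 and 53.4 CPM at P0, and HoxB 34.9, 35.5 and 33.7 CPM and 38.6, 28.0 and 33.5 CPM. HoxD held 38.1, 30.9 and 34.4 CPM at E14.5 and 35.2, 39.2 and 36.9 CPM at P0. The stages overlapped in each cluster, and the ratio of the P0 mean to the E14.5 mean was 0.951 in HoxA, 0.962 in HoxB, 1.02 in HoxC and 1.08 in HoxD. Over the 4 clusters the means were 207.6 ± 11.9 CPM at E14.5 and 208.4 ± 21.7 CPM at P0 (SD, n = 3 each). P0 replicate 2 had the lowest sum in 3 of the 4 clusters and the highest in HoxD.

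The stages also overlapped in the ratio of posterior to anterior regions. The log2 ratio of posterior to anterior counts, taken within each library and so free of the scaling between libraries, was 1.12, 1.57 and 1.21 at E14.5 and 1.63, 0.91 and 1.32 at P0 over the 4 clusters. In HoxD, where it set the Hoxd10 region against the Hoxd1 region, the E14.5 libraries gave 0.28 ± 0.33 and the P0 libraries 0.18 ± 0.45 (SD, n = 3 each). In HoxA it was 0.49 ± 0.39 and 0.53 ± 0.47 (SD, n = 3 each). There it set the region between Hoxa7 and Hoxa9 against that at the upstream start of Hoxa3, both of which lie in the middle of the cluster, so it does not describe the balance between the ends of HoxA. The Hoxa3 region also enters the ratio over the 4 clusters as anterior. HoxB and HoxC had no region nearest to an anterior gene inside the cluster and gave no ratio. Their posterior regions, at Gm53 and Hoxc10, still enter the ratio over the 4 clusters. That ratio sets 4 posterior regions against 2 anterior ones, so its level does not compare openness per region. By place, the summed accessibility of the central regions was 58.3 ± 4.84 CPM at E14.5 and 54.0 ± 3.46 at P0, and that of the posterior regions 52.1 ± 3.59 and 54.6 ± 9.89 (SD, n = 3 each). Each of the 5 places overlapped between the stages.

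**Figure D5:**
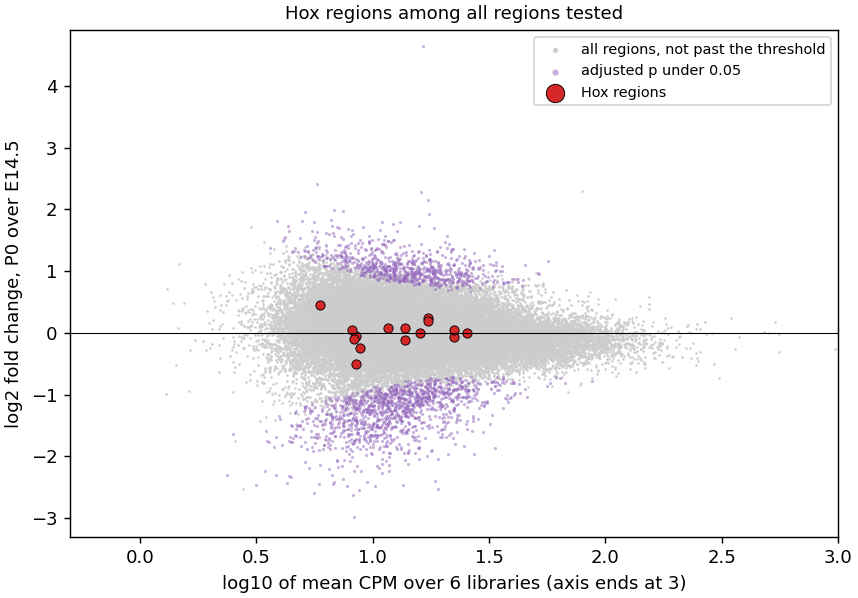
Log2 fold change of P0 over E14.5 (vertical axis) against the log10 of the mean CPM over 6 libraries (horizontal axis) for all regions, with those past the threshold in purple and the 15 Hox regions in red. A few regions of higher CPM lie beyond the end of the axis. The Hox regions sit between -0.51 and 0.45, inside the band of regions that did not pass.

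The authors' deposited table classed all 15 regions as stable. Its lowest adjusted p-value for a Hox region was 0.612, at Hoxc10, and 0 of the 15 passed 0.1 there, against 5.34% of all regions. Its log2 fold changes for Hoxb7 and the region beyond Hoxd13 were -0.35 and 0.33.

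Genes that work with the Hox factors were read from lists of their loci with 10 kb on either side. The cofactor list held the Pbx, Meis and Pknox genes, whose proteins bind DNA with Hox factors, and the Cdx genes, which act upstream of Hox. Of its 46 regions, at 11 of 12 genes, 0 passed edgeR's test, against 4.73% of all regions, and 4 had an unadjusted p under 0.05, against 18.7% of all regions. Their log2 fold changes had a median of 0.18, where that of the whole table was 0.0097. Most of the 46 were not promoters, and over all regions that are not promoters the median was 0.099, against -0.099 over all promoter regions. A region within Meis2 on chromosome 2, from 115894693 to 115896503, came closest, at 0.88 (edgeR adjusted p = 0.0772). It passed without E14.5 replicate 2 (adjusted p = 0.0487) and without P0 replicate 2 (adjusted p = 0.0439), and over all alternatives its adjusted p ran from 0.0439 to 0.334.

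Partners and targets of Hox11 in the metanephric mesenchyme held 21 regions at 8 of 9 genes, with no listed region at Pax2. None rose, against 1.79% of all regions, and 2 fell, against 2.94%. At an unadjusted p under 0.05 there were 4 of the 21, against 18.7% of all regions: the 2 that fell, and 2 with higher values at P0 that did not pass, near Gdnf and within Eya1. The region within Eya1 on chromosome 1, from 14217690 to 14219288, held 14.7, 17.2 and 19.6 CPM at E14.5 and 6.14, 6.05 and 6.87 CPM at P0 (log2 fold change -1.43, SE 0.23, edgeR adjusted p = 0.00370). Eya1 is a partner of the Hox11 proteins. Another region within Eya1, from 14244568 to 14245558, went the opposite way in value without passing, at 0.73 on the log2 scale (SE 0.27, edgeR adjusted p = 0.152). The region within Itga8 on chromosome 2, from 12221390 to 12222681, held 27.0, 24.8 and 36.6 CPM at E14.5 and 7.50, 11.2 and 16.5 CPM at P0 (log2 fold change -1.31, SE 0.27, edgeR adjusted p = 0.0120). Itga8 is also the gene of the selection antigen. At both called regions the stages did not overlap, as in 24.2% of all regions. Regions of the list that did not pass had this too: the other Eya1 region, a further Itga8 region and regions at Osr1. Without E14.5 replicate 3 the called Itga8 region had a log2 fold change of -1.13 (edgeR adjusted p = 0.0994). Without P0 replicate 1 it had -1.09 (edgeR adjusted p = 0.0742). Without P0 replicate 2 an intergenic region beyond the end of Gdnf, on chromosome 15 from 7837970 to 7839774, passed as well (log2 fold change 0.94, adjusted p = 0.0323, against 0.114 with all libraries). Over the 21 regions the median log2 fold change was 0.13.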

How the data were processed

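ATAC-seq libraries of Itga8-selected nephron progenitors were made from up to 24 pooled kidneys of a litter each, per the labels' protocols, and grouped and numbered by source name. The authors deposited 1 table with a whole-number count per region for each of the 6 libraries, on mm10 per the submitters' processing notes. The aligner, peak caller, counting rule, Tn5 shift and removal of duplicates are not given in the sources used here. The deposited columns of the authors' own comparison (log2 fold change and mean log2 expression, the t and B score, the p-value and adjusted p-value) were copied and not refitted. Columns were matched to libraries by title, and 0 were left unmatched.

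Of 45489 rows, 1966 repeated a region with identical counts and were dropped. All 43523 distinct regions were fitted with edgeR 4.0.16 in R 4.3.3: TMM, filterByExpr (which removed 0), a quasi-likelihood F test whose 1 term was stage, Benjamini-Hochberg over all regions, threshold 0.05. The standard error is the log2 fold change divided by the square root of F, and intervals (95%) use the t distribution of that fit. Alternatives used DESeq2 1.42.0 and limma 3.58.1. The fit was tested on simulated data. With 3 litters per stage, p-values measure the spread between litters. The labels name no batch.

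All 38 genes matched RefSeq GRCm38.p6, which gave spans, starts and sequences. For each member, the 5' end of its span, on the strand its cluster shares, and any start in the promoter table were tried, and the one nearest to a region was used. A region inside a cluster was placed by the gene nearest to its midpoint. Named regions were those past the threshold, the highest mean CPM and the largest fold change in each direction per cluster, those at groups 10 and 11, and those at the listed miRNA, Evx and noncoding RNA genes. The remaining regions were added so that each of the 15 is described. The members and lists were chosen with earlier results of these data known. Sums and ratios over members carry no test.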

Additional observations from a re-analysis of the deposited data

How the results depend on the processing

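The count of 0 Hox regions past the threshold, in either direction, was the same in the 14 alternative fits to the counts (2 scalings, 2 filters, the DESeq2 Wald test, limma-voom, the replicate block, overlapping regions thinned and 6 fits without 1 library each), at thresholds of 0.1 and 0.01, and with no flank or 100 kb flanks. The lowest adjusted p of any Hox region in any of these fits was 0.278, at Hoxb7 in the fit with the replicate block, where 0 Hox regions passed. Same-numbered libraries of the 2 stages had correlations of 0.067, -0.14 and 0.077 in their deviations from the stage means, so the numbers were not taken to pair litters, and not every library correlated best with its own number. The block changed the count over all regions from 2059 to 1834.

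Differences near 0 changed sign: with total-count scaling the log2 fold change was 0.051 at Hoxc6, 0.010 beyond Hoxc4 and 0.056 at Hoxd10, with limma-voom 0.015 at Hoxd10, and with the replicate block -0.0079 at Hoxa3. Over the fits without 1 library it ran from -0.085 to 0.058 at Hoxc6, -0.17 to 0.067 at Hoxc5, -0.041 to 0.15 at Gm30528, -0.34 to 0.20 beyond Hoxc4, -0.082 to 0.12 at Hoxd10, -0.089 to 0.19 at Hoxd1, -0.36 to 0.22 at Hoxa3 and -0.23 to 0.37 between Hoxa7 and Hoxa9. None of these values passed the threshold. The other 7 regions kept their sign but not their size: without 1 library, the values ran from -0.41 to -0.0038 at Hotairm1, -0.40 to -0.090 beyond Hoxa13, -0.21 to -0.0089 at Gm53, -0.81 to -0.25 at Hoxb7, 0.061 to 0.33 beyond Hoxb1, 0.083 to 0.30 at Hoxc10 and 0.30 to 0.52 beyond Hoxd13.

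Summed CPM moved in HoxB, where the log2 ratio of P0 to E14.5 was -0.32 without the flank and 0.20 without promoters, and in HoxD, where it was 0.46 without promoters, each time resting on 1 or 2 regions. Without 1 library the log2 ratio ran from -0.30 to 0.058 in HoxA, -0.17 to 0.057 in HoxB and -0.060 to 0.092 in HoxC. In HoxD it ran from 0.032 to 0.18. The stage difference in the posterior to anterior log2 ratio over the 4 clusters ran from -0.19 to 0.17. Over all regions, 3490 passed at 0.1, 539 at 0.01, and 339 to 2987 without 1 library. Cofactor regions numbered 1 at 0.1 and 0 to 1 without 1 library, and Hox11 pathway regions 1 at 0.01 and 1 to 3 without 1 library. The causes were not tested. The posterior to anterior ratio without promoters could not be computed, since each region inside the clusters is a promoter.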

Other observations

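The table also lists, for 18925 of the 43523 regions, genes predicted as targets of an overlapping enhancer. These entries do not match the Hox loci by chromosome. Of the 15 Hox regions, 12 have such entries, and 0 of the 12 name a gene on their own chromosome. In turn, 28 regions elsewhere name at least 1 of the 38 Hox genes, and 0 of the 28 lie on the chromosome of the Hox gene they name. Over the whole table, 998 of the 183177 pairs of region and gene with both placed on a chromosome (0.545%) share a chromosome, and all 998 are on chromosome 1, where they make up 6.77% of the pairs. The column was not used for any result above, and why the chromosomes differ was not tested.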
